A study of Homo sapiens with 18 samples.

Results

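IGSF3, an immunoglobulin superfamily member of the cell surface, was followed over 18 expression arrays of the clear cell renal cancer line 786-O. The gene is 1 of 13141 with a row in the table, and it was chosen by its own measurements: it was taken as the gene with the steadiest rise after either shRNA in both VHL backgrounds. Its differences between shRNA and control arrays are therefore described and not tested. The current human annotation (GRCh38.p14) places IGSF3 on chromosome 1.

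IGSF3 belongs to the EWI subfamily, named after a Glu-Trp-Ile motif, together with PTGFRN, IGSF8 and CD101. EWI proteins span the membrane once, carry immunoglobulin domains outside the cell, and sit in membrane microdomains beside tetraspanins and the integrins that tetraspanins bind. Variants of IGSF3 have been linked to closure of the tear duct, and the protein has been studied in developing neurons.

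The study asked what the loss of either of a pair of chromatin regulators does to transcription in renal cancer cells. PBRM1 is a subunit of the PBAF remodelling complex, and KDM5C removes methyl groups from lysine 4 of histone H3. 786-O cells lack functional VHL, the ubiquitin ligase component that marks HIF for destruction, and the VHL+/+ cells carry VHL put back into the same line. Each VHL state was measured with a control hairpin (SCR), a PBRM1 shRNA or a KDM5C shRNA, all stably expressed, with 3 arrays in each of the 6 groups, no further treatment and 1 hairpin for each target. By the paper's methods every construct but SCR came from Sigma, so the source of the construct and the targeting cannot be told apart on these arrays. In each group the first pair of replicates (1 and 2) was hybridized on chip 1 and the remaining one (3) on chip 2. The labels do not say whether the 3 arrays of a group came from separate cultures, so p-values measure the spread between these arrays, which may be technical.

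The arrays gave no reading of the knockdown itself. PBRM1 signal (log2) lay between 7.22 and 7.46 on the 6 SCR arrays and between 7.02 and 7.51 on the 6 arrays labelled PBRM1 shRNA, so the groups overlapped, with differences of -0.06 in VHL-/- cells (limma, adjusted p = 0.864) and -0.15 in VHL+/+ cells (adjusted p = 0.639). KDM5C has no row in the table. VHL signal differed by 0.08 between the VHL states on SCR arrays (limma, adjusted p = 0.766). Group names below are thus those of the labels, and each direction rests on them. The PBRM1 readings lay below the table median of 7.65, and background signal narrows differences toward the lower end. Separately from the arrays, the paper reports western blots and RT-qPCR in 786-O cells with PBRM1 or KDM5C suppressed by shRNA. Of 14 kidney epithelial markers 12 have a row, while PAX2 and LRP2 have none. The levels of the 12 differed widely. Over all arrays VIM lay between 13.68 and 14.14 and PAX8 between 8.07 and 8.86. CDH16 (6.61 to 7.16) and CUBN (6.51 to 6.80) lay near the lower end of the table. Of 10 leukocyte and endothelial markers 3 have a row (LYZ, ITGAM and PECAM1), and their arrays lay between 6.57 and 7.06, near the lower end of the table. Arrays of a group correlated at 0.976 to 0.995 over genes. In RNA from a whole culture, a higher level in every cell and a high level in some of the cells cannot be told apart.

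IGSF3 sat at a low level on every SCR array and at a high level on every shRNA array. In VHL-/- cells the 3 SCR arrays read 6.96, 7.00 and 7.01 (log2 signal, replicates 1 to 3). In VHL+/+ cells the SCR arrays read 7.19, 7.17 and 7.09. The SCR arrays of both backgrounds thus fell within a narrow band, with the VHL+/+ arrays all above the VHL-/- arrays by a gap of 0.08.

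With PBRM1 shRNA the readings were 8.86, 8.86 and 8.76 in VHL-/- cells and 8.90, 8.94 and 8.74 in VHL+/+ cells. With KDM5C shRNA they were 8.77, 8.99 and 8.77 in VHL-/- cells and 8.80, 8.77 and 8.74 in VHL+/+ cells. No shRNA array came near an SCR array: the lowest of the 12 was 8.74, the highest of the 6 SCR arrays was 7.19, and the 1.55 between them was empty. The 4 shRNA groups overlapped one another.

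**Figure D1:**
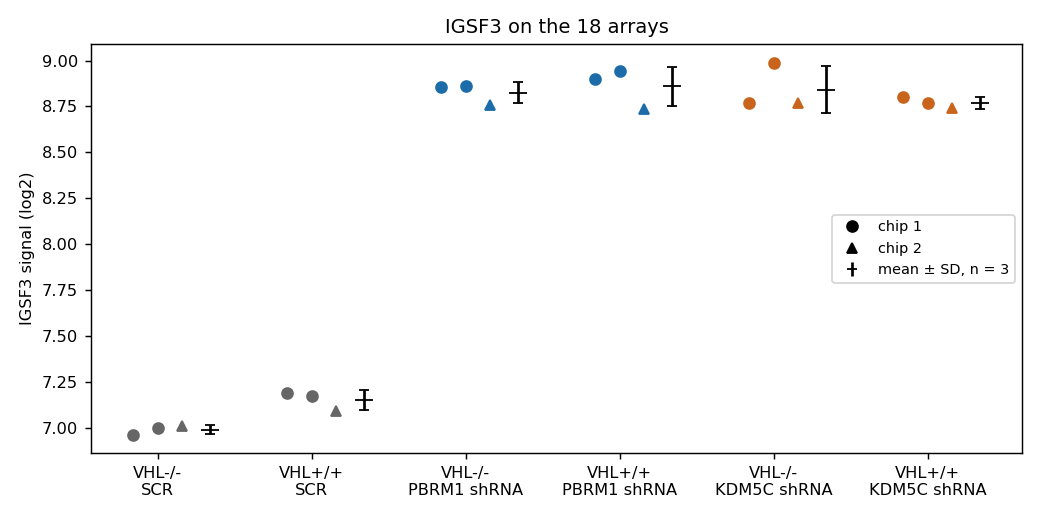
IGSF3 signal (log2, vertical axis) on each of the 18 arrays, by group; circles are chip 1, triangles chip 2, and the bar beside each group is its mean ± SD (n = 3). The 6 SCR arrays lie between 6.96 and 7.19 and the 12 shRNA arrays between 8.74 and 8.99.

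Ordered by their means, the groups ran from VHL-/- SCR at 6.99 ± 0.02 (SD, n = 3) and VHL+/+ SCR at 7.15 ± 0.05 to VHL+/+ KDM5C shRNA at 8.77 ± 0.03, VHL-/- PBRM1 shRNA at 8.83 ± 0.06, VHL-/- KDM5C shRNA at 8.84 ± 0.13 and VHL+/+ PBRM1 shRNA at 8.86 ± 0.11. Among the shRNA groups every step of this order was smaller than the larger SD of the groups on either side of it. The step between the higher SCR mean and the lowest shRNA mean, which is the 1.62 of KDM5C shRNA in VHL+/+ cells, compares with a largest SD within a group of 0.13. The SCR level was close to the lower end of the table, whose values run from 6.27 to 14.66 and in which 25% of values lie under 6.91. Background signal narrows differences at that end, so folds refer to the deposited signal and not to transcript numbers.

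In VHL-/- cells IGSF3 was higher by 1.84 on the log2 scale with PBRM1 shRNA (SE 0.07), a 3.57-fold difference in signal. In VHL+/+ cells the PBRM1 shRNA difference was 1.71 (SE 0.07), or 3.27-fold. KDM5C shRNA gave 1.85 (SE 0.07), or 3.61-fold, in VHL-/- cells and 1.62 (SE 0.07), or 3.08-fold, in VHL+/+ cells. All 4 differences thus lay between 3.08-fold and 3.61-fold. Each chip by itself gave a similar size: chip 1 gave 1.88, 1.74, 1.90 and 1.61 in the order above, and chip 2, with 1 array a group, gave 1.75, 1.65, 1.76 and 1.65. The same SCR arrays stand against both shRNAs within a VHL background, so the PBRM1 and KDM5C differences are not independent of each other.

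Against all genes these differences lay far outside the usual spread. The central 95% of genes ran from -0.42 to 0.41 for PBRM1 shRNA in VHL-/- cells, from -0.36 to 0.38 for PBRM1 shRNA in VHL+/+ cells, and from -0.39 to 0.39 for KDM5C shRNA in either background. IGSF3 had the largest increase of all genes in 3 comparisons and the second largest for KDM5C shRNA in VHL+/+ cells, after AKR7A2. Counting decreases too, 5, 0, 3 and 1 genes moved further than IGSF3 in the 4 comparisons.

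A gene counted as called when limma gave an adjusted p below 0.05 and the fold was 1.5 or more. By that rule 0.921% of genes were higher with PBRM1 shRNA in VHL-/- cells, 0.639% with PBRM1 shRNA in VHL+/+ cells, 0.807% with KDM5C shRNA in VHL-/- cells and 0.715% with KDM5C shRNA in VHL+/+ cells. In all 4 comparisons 49 genes were called higher, 0.373% of the table; IGSF3 is one of them by the choice that picked it, which is no test of it. In 134 genes (1.02%) all 12 shRNA arrays lay above all 6 SCR arrays, and in 84 genes (0.639%) all lay below. IGSF3 is one of the 134 by the same choice, and nothing is read from that.

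The values on which IGSF3 was chosen are set beside those of the genes next in line as a description only. The smallest of its 4 differences, 1.62, was second to the smallest of AKR7A2, an aldo-keto reductase that detoxifies aldehydes, at 1.64. Next came CCND1 (cyclin D1) at 1.30, AKR7A3, a close relative of AKR7A2, at 1.20, STMN3, a stathmin that binds tubulin, at 1.12, and GAS6, the ligand of the AXL receptor kinase, at 1.11. The ratio of the smallest difference to its standard error, which comes close to the choice itself, was 24.4 for IGSF3, 15.0 for AKR7A2, 14.5 for C2CD2, 13.2 for AKR7A3, 12.6 for KTELC1 (now POGLUT1, which adds glucose to Notch repeats) and 12.5 for ARPC4, a subunit of the complex that nucleates branched actin.

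The residual SD of IGSF3 after group and chip were fitted was 0.0627, against a median of 0.118 over all genes. A smaller residual SD was found for 805 genes, 6.13% of the table. Among the 49 genes called higher in all 4 comparisons IGSF3 had the smallest residual SD, with a median of 0.156 over the 49. The empty interval between SCR and shRNA arrays was also widest for IGSF3 at 1.55, before AKR7A2 at 1.33, C2CD2 at 0.88, KTELC1 at 0.83, AKR7A3 at 0.79 and HMGB2 at 0.69. A small residual SD and a wide interval are bound up with the choice of a steady gene, so neither is a test of IGSF3.

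**Figure D2:**
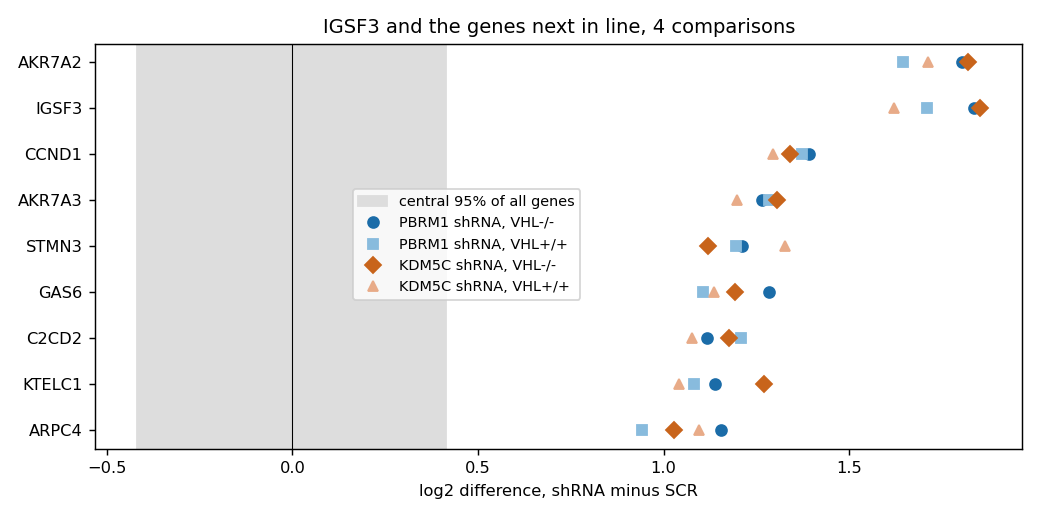
Log2 difference, shRNA minus SCR (horizontal axis), in the 4 comparisons for IGSF3 and the genes nearest to it by size or by ratio to the standard error; the grey band spans the widest central 95% of all genes, -0.42 to 0.41. The 4 points of IGSF3 lie between 1.62 and 1.85, beside those of AKR7A2 and to the right of the other 7 genes.

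The size of the IGSF3 difference varied over 0.23 on the log2 scale between the smallest and the largest of the 4. KDM5C shRNA minus PBRM1 shRNA was 0.02 in VHL-/- cells (95% interval -0.12 to 0.16) and -0.09 in VHL+/+ cells (-0.23 to 0.05). The PBRM1 shRNA difference in VHL+/+ cells minus that in VHL-/- cells was -0.13 (-0.33 to 0.07). For KDM5C shRNA it was -0.23 (-0.43 to -0.03). These contrasts are bound up with the choice of a steady gene and are given without a test. The -0.13 and the -0.23 are each also the VHL difference with the shRNA concerned minus the VHL difference with SCR, both given next.

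The VHL difference within 1 hairpin shares arrays with the comparisons that chose IGSF3, so it is described, and the mean over the 3 hairpins, whose estimate has a correlation of 0 with all 4 shRNA differences in this design, was tested. On SCR arrays IGSF3 was 0.16 higher in VHL+/+ cells (SE 0.07, 95% interval 0.02 to 0.30). The difference was 0.20 on chip 1 and 0.08 on chip 2. On this comparison 1.03% of genes were called, and 3368 genes differed more than IGSF3.

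With PBRM1 shRNA the VHL difference of IGSF3 was 0.03 (SE 0.07, 95% interval -0.11 to 0.18), where 1.02% of genes were called. With KDM5C shRNA it was -0.07 (SE 0.07, 95% interval -0.21 to 0.07), where 0.89% were called. Both pairs of groups overlapped. The mean VHL difference over the 3 hairpins was 0.04 (SE 0.04, 95% interval -0.04 to 0.12; limma adjusted p = 0.577), where 0.928% of genes were called. Exchanging VHL labels within hairpin and chip gave an exact two-sided p of 0.247 over 1728 arrangements, the smallest possible being 0.00116. The width of the interval of the mean rests on the residual SD of IGSF3, which is bound up with the choice of a steady gene. Both p-values of the mean rest on the same small spread. The interval may therefore be too narrow, and it sets no limit on a VHL difference of IGSF3. The mean also pools unlike values, 0.16 with SCR, 0.03 with PBRM1 shRNA and -0.07 with KDM5C shRNA.

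Among the 49 genes called higher in all 4 comparisons, 3 were called for the mean VHL difference (CCND1, TMEM158 and DPYSL2, all lower in VHL+/+ cells), beside 0.928% of all genes. A limma adjusted p under 0.05 without the fold was reached by 14 of the 49, and the share of all genes at that threshold was not counted. The mean VHL differences of the 49 ran from -1.63 to 0.57 with a median of -0.03. In 7 of the 49 the VHL difference was smaller in size than that of IGSF3. CCND1, whose product drives entry into S phase and which HIF is known to raise in renal cells, is the one of these 3 with the largest shRNA differences. Its SCR arrays read 11.18, 11.16 and 11.04 in VHL-/- cells and 9.46, 9.55 and 9.54 in VHL+/+ cells, a mean VHL difference of -1.63 (SE 0.07; limma adjusted p = 1.95e-10). Its shRNA differences were nearly equal, from 1.30 to 1.39, yet the VHL shift left its SCR and shRNA arrays overlapping when both backgrounds were pooled. Whether the VHL differences of CCND1 and IGSF3 differ was not tested.

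Between the chips IGSF3 showed a small difference that missed the adjusted threshold. Its signal was 0.08 lower on chip 2, at -0.08 (SE 0.04; limma adjusted p = 0.155), while 23.8% of genes passed an adjusted p of 0.05 for the chip.

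Neither of the other EWI genes with a row was called with either shRNA. The share of all genes called in either direction with PBRM1 shRNA was 1.81% in VHL-/- cells and 0.944% in VHL+/+ cells. With KDM5C shRNA it was 1.46% in VHL-/- cells and 1.14% in VHL+/+ cells. Nothing is therefore read from the absence of calls in these EWI genes. PTGFRN, which binds CD9 and CD81, read 9.33, 9.33 and 9.64 on VHL-/- SCR arrays and 9.91, 9.65 and 9.86 on VHL+/+ SCR arrays. Its VHL-/- arrays read 9.48, 9.63 and 9.43 with PBRM1 shRNA and 9.65, 9.23 and 9.61 with KDM5C shRNA, and its VHL+/+ arrays 9.52, 9.79 and 9.85 with PBRM1 shRNA and 9.56, 9.57 and 9.39 with KDM5C shRNA. Its groups overlapped except for KDM5C shRNA in VHL+/+ cells, where every array lay below SCR, and for SCR arrays between the VHL states.

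The shRNA differences of PTGFRN were 0.08, -0.09, 0.06 and -0.30, in the order PBRM1 shRNA in VHL-/- and VHL+/+ cells and KDM5C shRNA in VHL-/- and VHL+/+ cells, with limma adjusted p of 0.828, 0.823, 0.862 and 0.183. IGSF8, a partner of the same tetraspanins, lay between 6.74 and 7.04 on all 18 arrays and differed by 0.02, -0.01, -0.01 and -0.02 (limma adjusted p 0.927 to 0.982). CD101 has no row.

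The proteins that EWI members associate with were read from lists written with earlier results of these data known. Of 33 tetraspanins 23 have a row, of 10 tetraspanin-linked integrins and cytoskeletal linkers 8, and of 60 other adhesion proteins with immunoglobulin domains 29. The medians of the 23 tetraspanins were -0.06, -0.01, -0.04 and 0.00 in the 4 comparisons, where the median of all genes was 0.00 each time. Those of the 8 linkers were 0.02, 0.02, 0.03 and -0.03, and those of the 29 adhesion proteins -0.04, -0.02, 0.01 and -0.01. Every median lay within 0.06 of 0. The 1.62 to 1.85 of IGSF3 are the values on which it was chosen, so their distance from these medians is no result about the lists.

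Together with the EWI pair and the chromosomal neighbours described below, these lists hold 80 different genes besides IGSF3. By limma 0 of the 80 were called in each of the 4 comparisons, where the background of calls in either direction was 1.81%, 0.944%, 1.46% and 1.14%. At an unadjusted p under 0.05 there were 19, 18, 19 and 17 of the 80, or 23.8%, 22.5%, 23.8% and 21.3%, beside 18.1%, 15.3%, 17.5% and 18.4% of all genes. The differences of the 80 ran from -0.64 to 0.59.

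An adjusted p under 0.05 without the fold was reached by 2, 1, 3 and 5 of the 80, and the 3 genes named here were picked among them after their values were seen. The share of all genes at that threshold was not counted, so nothing about the lists is read from these counts. TSPAN12, a tetraspanin of Norrin signalling, differed by -0.48 and -0.50 with PBRM1 shRNA in VHL-/- and VHL+/+ cells (limma adjusted p 0.0195 and 0.0247) and by -0.56 with KDM5C shRNA in VHL+/+ cells (adjusted p 0.0113), beside -0.22 for KDM5C shRNA in VHL-/- cells (adjusted p 0.356). It was also the 1 listed gene called between VHL states, at 0.63 on SCR arrays (adjusted p = 0.0058) and 0.61 with PBRM1 shRNA (adjusted p = 0.00703), higher in VHL+/+ cells. PVRL3, the adhesion protein nectin-3, differed by -0.38 with PBRM1 shRNA in VHL-/- cells (limma adjusted p = 0.0188) and by -0.51 and -0.34 with KDM5C shRNA in VHL-/- and VHL+/+ cells (adjusted p 0.0029 and 0.0443). ACTN4, an actin cross-linker, was the 1 such gene with a positive difference, 0.43 with KDM5C shRNA in VHL+/+ cells (limma adjusted p = 0.0442).

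**Figure D3:**
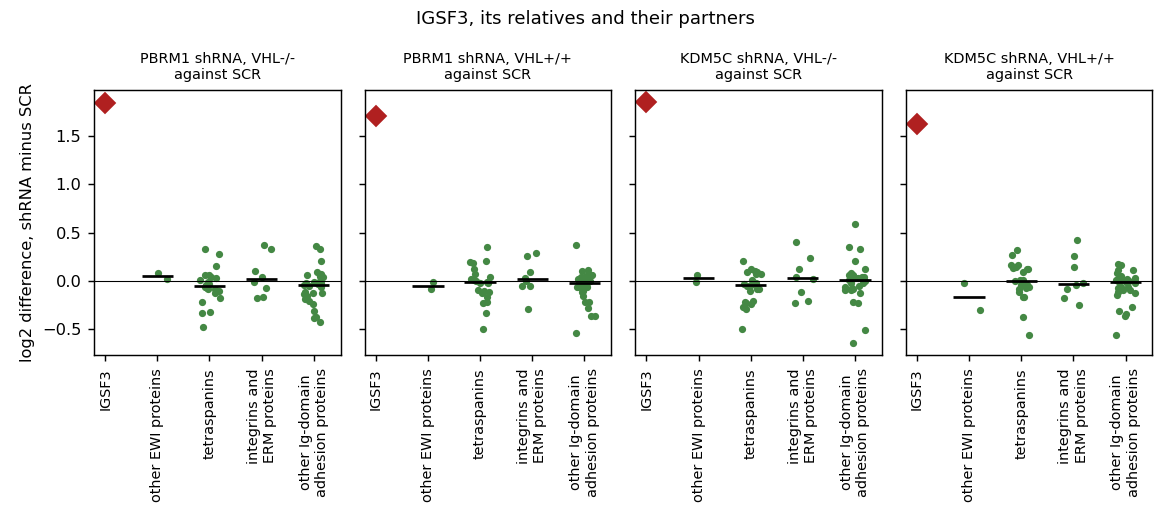
Log2 difference, shRNA minus SCR (vertical axis), for IGSF3 (red diamond) and for each gene with a row in the lists of its relatives and partners (green points, spread sideways at random; black line, median), 1 panel for each comparison. IGSF3 stands at 1.62 to 1.85, and the listed genes lie between -0.64 and 0.59.

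The neighbours of IGSF3 on chromosome 1 were read in the same way. The 10 nearest genes with a row on each side were compared, from CD58 to BCAS2 on one side and from CD2 to ZNF697 on the other. CD58 and CD2, next to IGSF3 on either side, encode a ligand and receptor pair of T cell adhesion. CD58 differed by -0.17, -0.12, -0.02 and -0.04 in the 4 comparisons and CD2 by -0.02, 0.01, 0.06 and -0.05. PTGFRN, the relative of IGSF3, is the next gene after CD2, with the values given above.

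None of the 20 neighbours was called in any comparison by limma. Among all genes 1.81%, 0.944%, 1.46% and 1.14% were called in either direction, so for 20 genes nothing is read from that. At an unadjusted p under 0.05 there were 2, 3, 4 and 6 of the 20, beside 18.1%, 15.3%, 17.5% and 18.4% of all genes. The differences of the neighbours ran from -0.34 to 0.33. SLC22A15, a transporter of organic ions, had the lowest, with -0.32, -0.18, -0.34 and -0.30, and it passed the adjusted p once, for KDM5C shRNA in VHL-/- cells (limma adjusted p = 0.0474). ZNF697, the farthest on its side, differed by 0.27, 0.27, 0.33 and 0.30, and all 4 values missed the adjusted threshold.

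**Figure D4:**
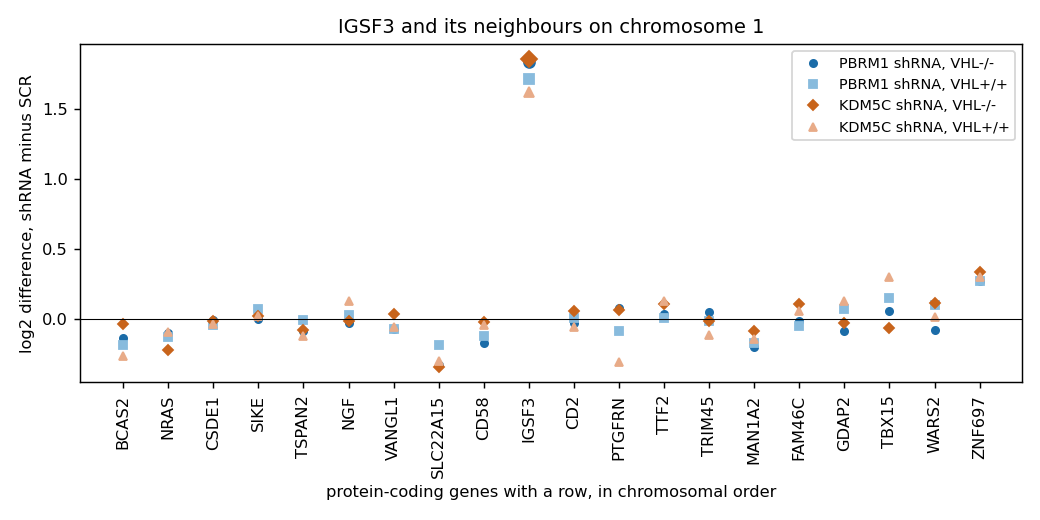
Log2 difference, shRNA minus SCR (vertical axis), of IGSF3 and 19 of its 20 nearest genes with a row, in chromosomal order and not to scale; each marker is 1 of the 4 comparisons. IGSF3 stands at 1.62 to 1.85, and these neighbours lie between -0.34 and 0.33.

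The genes most like IGSF3 over the arrays were found by Pearson's r over 18 arrays after the chip term was removed. They were C2CD2 (r = 0.99), AKR7A2, GAS6, AKR7A3, KTELC1 and ARPC4 (each 0.98), HMGB2, a chromatin protein that bends DNA (0.97), and C21ORF2, now CFAP410, a protein of the cilium base (0.97). In all 8 the 6 SCR arrays lay below the 12 shRNA arrays. The arrays form 2 clusters, SCR and shRNA, and these coefficients mostly restate that step.

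C2CD2, the closest, read 7.34, 7.49 and 7.43 on VHL-/- SCR arrays and 7.36, 7.49 and 7.43 on VHL+/+ SCR arrays. Its shRNA arrays lay between 8.37 and 8.73. For each log2 unit of IGSF3 it moved by 0.65, AKR7A2 by 0.98 and C21ORF2 by 0.31. AKR7A2 was the closest match in size, with SCR arrays from 8.92 to 9.35 and shRNA arrays from 10.69 to 11.10. AKR7A2 and AKR7A3 are similar in sequence, and signal shared between their probes was not tested.

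Over the 12 shRNA arrays alone the coefficients were lower. C2CD2 then had r = 0.36, AKR7A2 -0.50 and HMGB2 0.59, and 0 of the 8 were among the 8 genes most like IGSF3 on those arrays. Over all genes r with IGSF3 on 18 arrays had a median of 0.01 and a central 95% from -0.74 to 0.76, with 55 genes above 0.9 and 20 below -0.9.

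Among the most opposed genes were COL5A2, a fibrillar collagen chain (r = -0.96), TAP1, the transporter that loads peptides for class I presentation (-0.94), and GRN, the progranulin precursor (-0.92). COL5A2 lay between 7.46 and 7.65 on SCR arrays and between 6.84 and 7.14 on shRNA arrays. TAP1 lay between 10.59 and 11.20 on SCR arrays and between 10.03 and 10.49 on shRNA arrays. Neither gene's SCR and shRNA arrays overlapped. Those of GRN did on the deposited values, with 9.19 to 9.91 against 8.40 to 9.39, where its r was -0.75. On chip 1 GRN read 9.19 to 9.46 against 8.40 to 8.87. On chip 2 it read 9.81 to 9.91 against 8.94 to 9.39, so neither chip alone showed the overlap.

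**Figure D5:**
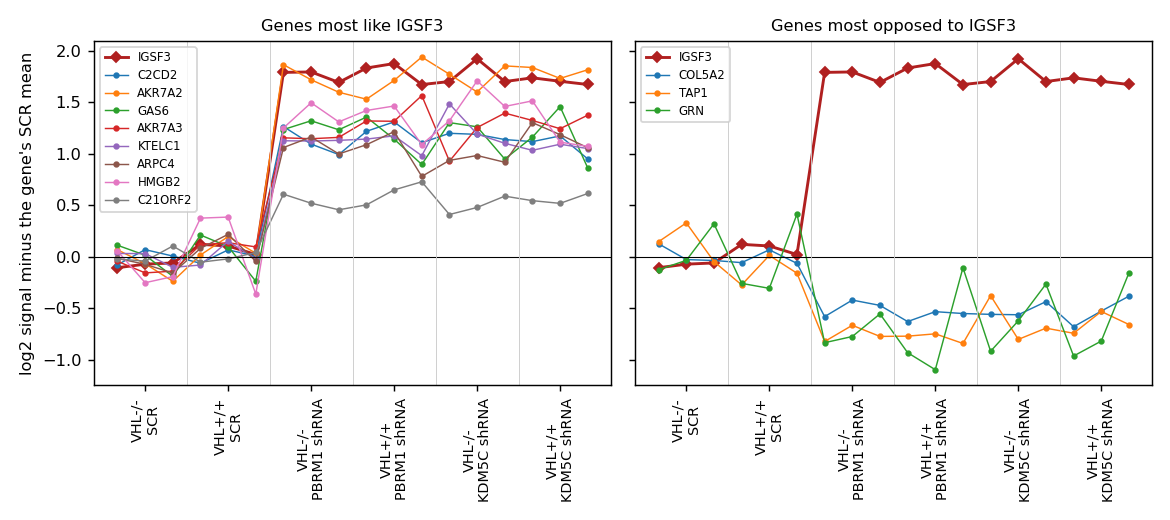
Log2 signal minus each gene's mean over the 6 SCR arrays (vertical axis) on the 18 arrays in group order, 3 arrays to a group (replicates 1 to 3), for IGSF3 with the 8 genes most like it (left) and 3 of the most opposed (right); lines join arrays only to guide the eye. The 8 step up with IGSF3 from SCR to shRNA arrays and the 3 step down, and over the 12 shRNA arrays alone r with IGSF3 runs from -0.67 to 0.59.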

How the data were processed

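RNA was profiled with the Illumina HumanHT-12 V4 bead chip. The deposited values are log2 signals: the authors used GenomeStudio and limma (versions not given in the sources used here) to correct the background to positive values, take the logarithm, quantile-normalize, keep probes detected at 0.05 and average the probes of a gene. Probes of IGSF3 could therefore not be examined separately. Whether the batch correction of the study's heat maps entered these values is not stated.

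Here limma 3.58.1 in R 4.3.3 fitted the 6 groups and the chip (11 residual degrees of freedom) to all 13141 genes and 18 arrays, with Benjamini-Hochberg adjustment within a contrast. The number of arrays limits the precision. Of 13141 symbols 10777 equal a current RefSeq symbol, 1973 a synonym and 391 neither, letter case ignored. Replicate numbers were checked for pairing: in 4 of 7 comparisons all 3 same-numbered pairs of arrays deviated together from their group means (r over 0.1), and in the other 3 not all did. The scripts were tested on simulated data.

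IGSF3, the lists and the tests were chosen with earlier results of these data known. Genes named are IGSF3, PBRM1 and VHL, EWI genes, neighbours, listed genes called with either shRNA, the 8 most alike and 4 most opposed, the next 5 by smallest difference and by its ratio to the standard error; exceptions are marked, and some genes under this rule are not reported here. Alternatives were other chip terms, samples, filters, scalings, moderation, fold thresholds and leaving out each array. Detection calls were not used here, and no sequence is printed.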

Additional observations from a re-analysis of the deposited data

How the results depend on the processing

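The 4 shRNA differences of IGSF3 stayed within 1.81 to 1.88, 1.68 to 1.75, 1.79 to 1.91 and 1.61 to 1.64 over the alternatives, and its mean VHL difference stayed within 0.02 to 0.06 and missed the adjusted threshold (adjusted p 0.326 to 0.77), lowest without VHL-/- KDM5C shRNA replicate 1 and highest without its replicate 2. The VHL difference ran from 0.13 to 0.21 with SCR, from 0.01 to 0.07 with PBRM1 shRNA and from -0.12 to -0.01 with KDM5C shRNA when 1 array was left out. With the replicate number as a replicate block, and no chip term, the mean VHL difference was 0.04 (adjusted p = 0.576) and no call of IGSF3 or count of listed genes changed. Of 21 correlations between same-numbered arrays 18 passed 0.1 (-0.17 to 0.72).

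Leaving out arrays gave 0 to 1 listed genes called for PBRM1 shRNA in VHL+/+ cells (TSPAN12, without VHL+/+ PBRM1 shRNA replicate 1), 0 to 1 for KDM5C shRNA in VHL-/- cells and 0 to 2 for KDM5C shRNA in VHL+/+ cells (TSPAN12 and ALCAM, without the second array of either group). For KDM5C shRNA in VHL-/- cells the gene was JAM3 without VHL-/- KDM5C shRNA replicate 1, TSPAN9 without its replicate 3, and ICAM1 without VHL-/- SCR replicate 2, VHL-/- PBRM1 shRNA replicate 3, VHL+/+ SCR replicate 3, or VHL+/+ KDM5C shRNA replicate 1 or 2. ICAM1 was also the 1 gene called there without the dimmest 25% of genes or with trend and robust moderation. Over the shRNA arrays alone 0 of the 8 most alike genes were shared.

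At a fold of 2, as the methods text gives, 57, 21, 43 and 23 genes were called in place of 238, 124, 192 and 150, and 40, 43, 38 and 39 for VHL in place of 135, 134, 117 and 122. With no chip term KDM5C shRNA in VHL+/+ cells gave 88, and VHL 60, 39 and 54 with SCR, PBRM1 and KDM5C shRNA; with only the arrays compared, the latter pair gave 55 and 43. VHL on SCR arrays gave 88 when replicate 1 of VHL-/- SCR was left out and 79 when that of VHL+/+ SCR was, and with PBRM1 shRNA 88 without VHL+/+ PBRM1 shRNA replicate 3.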
